A study of Rattus norvegicus with 18 samples.

Results

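Kidney tubule injury markers were followed in NRK-52E cells exposed to aristolochic acid. The markers were 10 genes, Havcr1, Lcn2, Tff3, Vcam1, Cd44, Spp1, Clu, Timp1, B2m and Cst3. Every probe set whose single platform gene symbol was one of these names was taken, which gave 13 of the 31042 probe sets on the array that are not controls. Of the 13, 8 reached log2 4 on at least 3 arrays and entered the test, and 5 stayed below log2 4 on all 18 arrays. The tested 8 were the probe sets of Cd44, Spp1, Clu, Timp1, B2m and Cst3, with 2 each for Cd44 and B2m.

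NRK-52E is an established rat kidney epithelial line, labelled as renal proximal tubular and as of Osborne-Mendel strain. Aristolochic acid (AA) is a plant nephrotoxin and carcinogen that cells reduce to a DNA-binding form. It was given at 1.65 µM in 0.1% DMSO, the concentration labelled as the IC10 at 72 h. The groups were AA for 6 h, DMSO for 6 h, AA for 24 h, DMSO for 24 h, AA for 72 h and DMSO for 72 h, with 3 arrays each, and all of them had received DMSO. The cells were confluent, and all arrays came from this 1 line. Replicates are labelled biological, with no word on shared plates or days, so a p-value here reflects only how far these arrays scatter.

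When tubule cells are injured they lose transporters, take on a less differentiated state and release or shed proteins that reach the urine. KIM-1 (Havcr1), a phosphatidylserine receptor by which injured tubule cells take up dead cells, and NGAL (Lcn2), a carrier of bacterial iron chelators, are the best known of these markers. Other markers are matrix proteins and their receptors, a chaperone, a protease inhibitor, and small filtered proteins that a healthy proximal tubule takes back up. The filtered proteins are read in urine as signs of failed uptake, which differs from their mRNA level in the cells.

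Promoters are shown for 4 of the members, Cd44, B2m, Lcn2 and Vcam1. Cd44 had the largest treatment difference, and B2m was also higher with AA at 72 h. Lcn2 and Vcam1 stayed below log2 4 on every array. B2m, Lcn2 and Vcam1 were the 3 members whose promoters held the NF-kB motif, the site class of a transcription factor of inflammation. Each sequence runs 5′ to 3′ from 250 bases before to 50 bases after the annotated start (RefSeq, GRCr8), at chr3:109699375-109699674 on the minus strand for Cd44, chr3:129549080-129549379 on the plus strand for B2m, chr3:36081731-36082030 on the minus strand for Lcn2 and chr2:206742734-206743033 on the minus strand for Vcam1. Capitals mark matches to the motifs searched.
Cd44: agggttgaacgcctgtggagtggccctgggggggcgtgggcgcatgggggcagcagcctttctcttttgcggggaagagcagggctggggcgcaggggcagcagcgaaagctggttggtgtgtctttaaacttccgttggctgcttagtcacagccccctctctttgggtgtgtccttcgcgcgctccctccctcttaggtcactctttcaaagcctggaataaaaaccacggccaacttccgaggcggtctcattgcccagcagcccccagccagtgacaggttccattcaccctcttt
B2m: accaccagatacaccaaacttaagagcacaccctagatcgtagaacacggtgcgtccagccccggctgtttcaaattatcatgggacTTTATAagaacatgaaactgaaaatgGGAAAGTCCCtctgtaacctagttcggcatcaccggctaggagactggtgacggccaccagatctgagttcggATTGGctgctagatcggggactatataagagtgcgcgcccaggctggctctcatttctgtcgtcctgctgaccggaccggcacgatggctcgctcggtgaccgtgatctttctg
Lcn2: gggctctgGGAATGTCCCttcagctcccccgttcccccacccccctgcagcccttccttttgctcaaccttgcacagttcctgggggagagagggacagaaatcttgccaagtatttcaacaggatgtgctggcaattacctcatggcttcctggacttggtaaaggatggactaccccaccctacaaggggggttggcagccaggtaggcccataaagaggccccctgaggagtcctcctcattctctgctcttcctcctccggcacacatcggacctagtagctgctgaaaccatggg
Vcam1: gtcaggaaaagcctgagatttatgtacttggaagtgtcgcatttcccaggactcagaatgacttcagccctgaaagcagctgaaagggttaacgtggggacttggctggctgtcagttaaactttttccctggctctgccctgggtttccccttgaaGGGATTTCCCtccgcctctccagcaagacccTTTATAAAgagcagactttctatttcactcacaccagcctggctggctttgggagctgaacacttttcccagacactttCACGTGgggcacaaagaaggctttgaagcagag

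The motifs searched on both strands were the TATA box (TATAAA), the CCAAT box (CCAAT), AP-1 (TGANTCA), the GC box (GGGCGG), the E-box (CACGTG), NF-kB and the p53 half-site. Of the 10 members, 9 were in the promoter table, all but Clu. NF-kB letters stood at positions -137 to -128 in B2m, -242 to -233 in Lcn2 and -93 to -84 in Vcam1, counted from the start. B2m also held TATA and CCAAT letters on the opposite strand, and Vcam1 held overlapping TATA letters on both strands and an E-box. The NF-kB motif was present in 7.51% of all 33469 promoters of that length, TATAAA in 14.2% and CCAAT in 37.5%. The Cd44 and Havcr1 promoters held none of the 7 motifs, which says only that these letters are not in that window.

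Havcr1 was at the floor of the array in every group. Its probe set, 1387965_at, lay between 1.89 and 1.95 on the log2 scale over the 18 arrays. Vcam1, an adhesion molecule for leukocytes that appears on tubule cells that fail to repair, lay between 2.20 and 2.27, and Tff3, a trefoil peptide of mucosal repair, between 3.36 and 3.51. The 3 genes had no array above log2 4 with AA or with DMSO, so these probe sets gave no level to compare.

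Lcn2 (1387011_at) was the 1 marker below log2 4 whose arrays differed visibly. It read 1.88, 2.62 and 1.84 with AA for 6 h, against 2.0, 3.01 and 3.97 with DMSO for 6 h. The higher readings were in DMSO, the groups overlapped, and in a fit without the filter the difference was -0.88 with adjusted p = 0.107. At 24 and 72 h every array of either group read between 1.84 and 1.87. The second Clu probe set, 1388246_at, lay between 1.98 and 2.68 with a median of 2.02, while the other Clu probe set was among the brightest of the members.

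**Figure D1:**
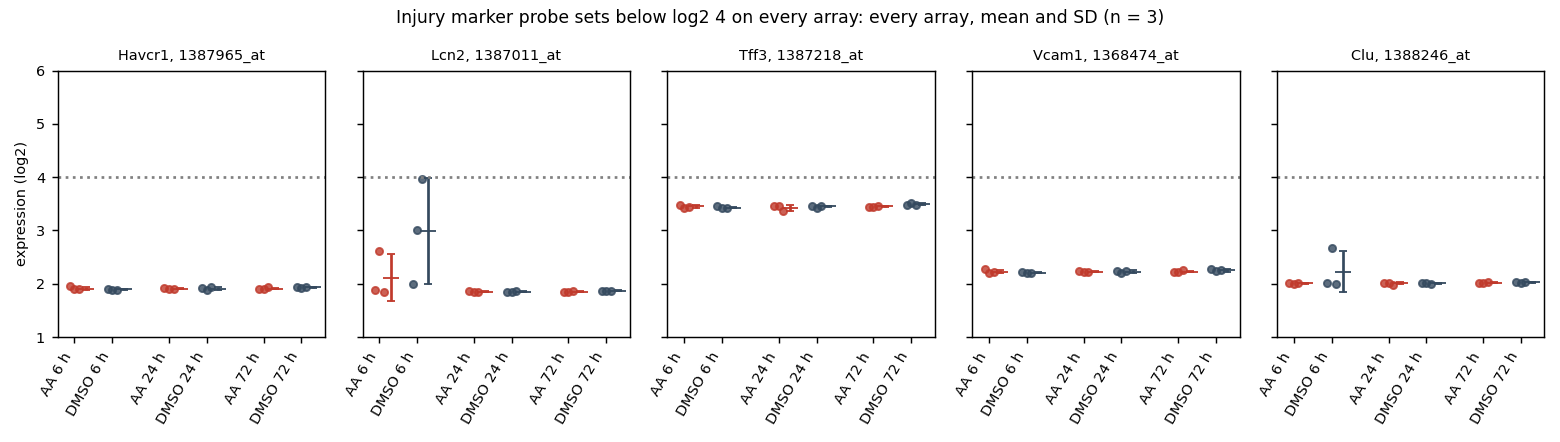
The 5 marker probe sets that stayed below log2 4, with each array as a point, the group mean and the SD (n = 3). The vertical axis is log2 expression, the dotted line is log2 4, and each AA group stands left of its DMSO group. Lcn2 has its scattered arrays at 6 h, with 3.97 on 1 DMSO array. The second Clu probe set has 1 DMSO 6 h array at 2.68, and Havcr1, Vcam1 and Tff3 are flat.

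At 72 h, 7 of the 8 tested probe sets were higher with AA and none was lower. Cd44 differed most from DMSO, being 4.94- and 5.82-fold higher in its 2 probe sets. Clu, B2m, Spp1 and Timp1 were 1.18- to 1.59-fold higher than with DMSO, with the 2 B2m probe sets at 1.58- and 1.18-fold. These are differences between groups at 72 h and not rises over time. Between 24 h and 72 h Spp1 fell with AA and with DMSO, and Cd44 fell with DMSO. Cst3 did not pass. In limma's test over all 16253 probe sets at adjusted p under 0.05, 44.5% of probe sets were called at 72 h, 23.5% higher and 21% lower. Arrays of the 2 groups did not overlap in the same 7 probe sets, and in 30.3% of all probe sets they did so with AA higher. The median difference was 0.59 over the 8 probe sets and 0.025 over all probe sets. All 7 calls held in every other setting in which the probe set was tested. In cultures measured in bulk, fewer cells of a type and less RNA per cell cannot be told apart.

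Cd44 encodes the main cell surface receptor for hyaluronan, which also binds osteopontin. With AA for 72 h probe set 1368921_a_at read 7.06, 7.12 and 7.39, against 5.32, 5.09 and 3.55 with DMSO for 72 h. Probe set 1387952_a_at read 6.73, 6.53 and 7.57 with AA for 72 h, against 5.17, 4.93 and 3.83 with DMSO for 72 h. Every AA array was above every DMSO array in both, and DMSO replicate 3 fell below log2 4 in both. The difference was 2.54 ± 0.32 (SE, n = 3 each; 5.82-fold, 95% interval 3.67 to 9.25, adjusted p = 4.34e-06) in the first. In the second it was 2.30 ± 0.28 (4.94-fold, 95% interval 3.26 to 7.47, adjusted p = 3.77e-06). Without DMSO replicate 3 the differences were 1.99 and 1.90, and both remained called.

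Clu encodes clusterin, a secreted chaperone. It read 14.43, 14.52 and 14.46 with AA for 72 h, against 13.90, 13.80 and 13.70 with DMSO for 72 h. The 3 AA arrays were all higher, and AA for 72 h was the highest group of the 6. The difference was 0.67 ± 0.05 (1.59-fold, adjusted p = 2.01e-08).

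Spp1 encodes osteopontin, a secreted matrix phosphoprotein. It read 12.88, 12.69 and 12.75 with AA for 72 h, against 12.56, 12.38 and 11.82 with DMSO for 72 h. The groups did not overlap, with DMSO replicate 3 again the lowest array. The difference of 0.52 ± 0.13 (1.44-fold, adjusted p = 0.00304) was 0.31 with adjusted p = 0.0118 without that array.

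Timp1 encodes a secreted inhibitor of matrix metalloproteases. It read 14.50, 14.68 and 14.58 with AA for 72 h, against 14.31, 14.25 and 14.09 with DMSO for 72 h, again with no overlap. The difference was 0.37 ± 0.06 (1.29-fold, adjusted p = 5.51e-05).

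B2m encodes beta-2 microglobulin, the light chain of MHC class I molecules. Probe set 1371440_at read 12.06, 12.52 and 12.39 with AA for 72 h, against 11.75, 11.61 and 11.64 with DMSO for 72 h, a difference of 0.66 ± 0.11 (1.58-fold, adjusted p = 0.000153). Probe set 1367595_s_at read 15.59, 15.54 and 15.46 with AA for 72 h, against 15.36, 15.21 and 15.29 with DMSO for 72 h, a difference of 0.24 ± 0.06 (1.18-fold, adjusted p = 0.00489). Both probe sets were higher on every AA array, by unequal amounts. The second lay near the top of the scale, whose highest value on any array was 16.05.

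Cst3 encodes cystatin C, a secreted inhibitor of cathepsins that the proximal tubule takes up after filtration. It read 14.55, 14.76 and 14.71 with AA for 72 h, against 14.72, 14.64 and 14.71 with DMSO for 72 h. The groups overlapped. The difference was -0.01 ± 0.07, with a 95% interval of -0.16 to 0.14 (0.893- to 1.10-fold).

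The ratio of 3′ to 5′ probe sets of the Actb control, a sign of RNA quality, was higher in the same arrays. It was 1.85 to 2.16 on the log2 scale with AA for 72 h, against 1.29 to 1.45 with DMSO for 72 h, and lay between 0.98 and 1.27 in the other groups. For Gapdh it was -0.12 to -0.04 with AA for 72 h, against -0.28 to -0.13 with DMSO for 72 h, and for Hk1 it was 1.10 to 1.67 with AA for 72 h, against 0.92 to 1.29 with DMSO for 72 h. Its part in the marker differences at 72 h was not tested.

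**Figure D2:**
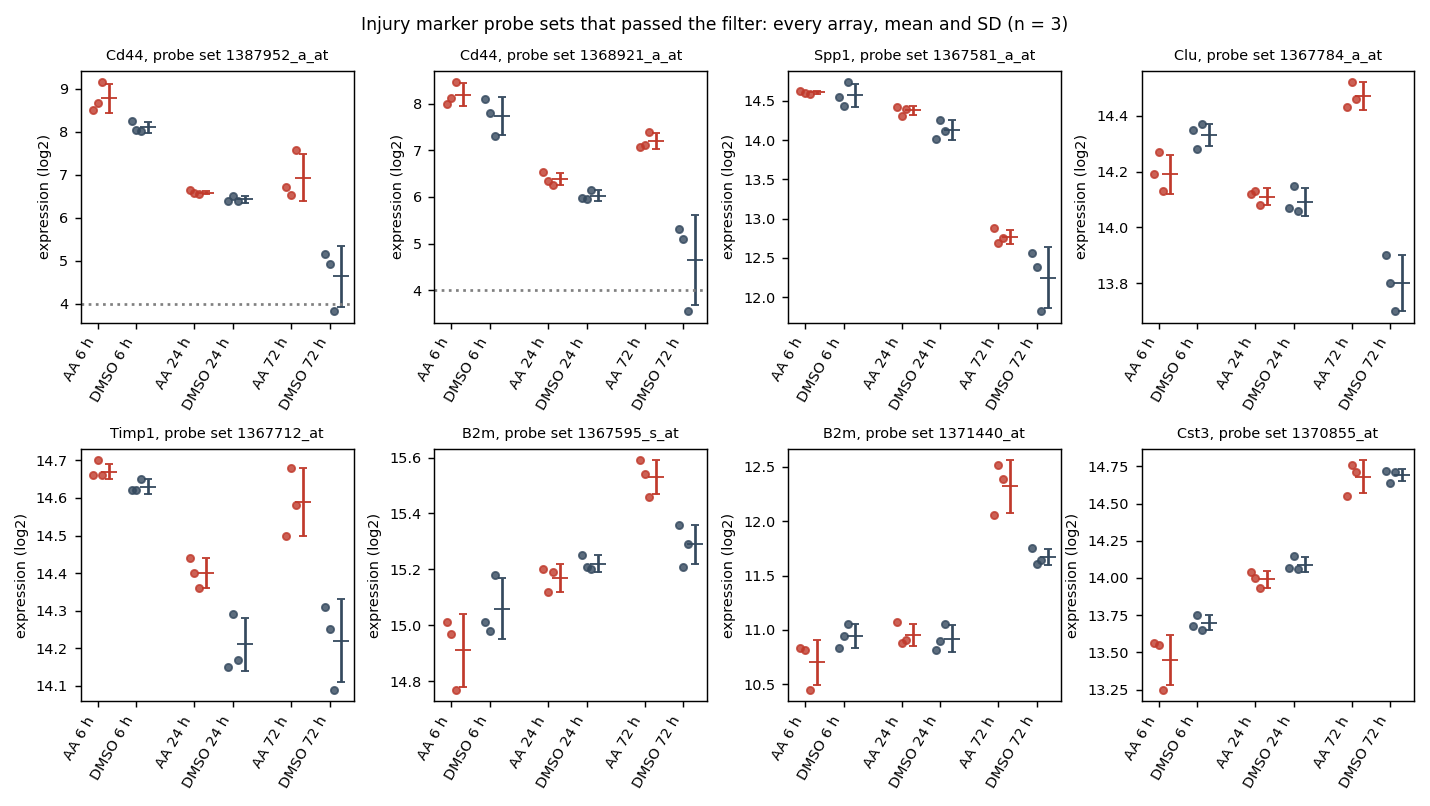
The 8 marker probe sets that passed the filter, with each array as a point, the group mean and the SD (n = 3). Vertical axes are log2 expression and differ between panels, each AA group stands left of its DMSO group, and dotted lines mark log2 4. At 72 h all AA arrays lie above all DMSO arrays in 7 panels, and Cst3 overlaps.

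At 6 h, 1 of the 8 probe sets was called, Cst3, which was lower with AA. Cst3 read 13.56, 13.55 and 13.25 with AA for 6 h, against 13.68, 13.75 and 13.65 with DMSO for 6 h. The difference was -0.24 ± 0.07 (adjusted p = 0.0237), and AA replicate 3 was the lowest array. It was -0.14 with adjusted p = 0.148 without that replicate, and -0.17 with adjusted p = 0.182 with arrays centred on their median. Of all probe sets 21.4% were called at 6 h, 9.62% higher and 11.8% lower, and with arrays centred on their median the split was 14.6% higher and 7.08% lower. The call was lost in 6 of 13 other settings, with adjusted p between 0.0132 and 0.182 over all of them.

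Cd44 had its highest levels at 6 h. Probe set 1387952_a_at read 8.51, 8.68 and 9.16 with AA for 6 h, against 8.25, 8.04 and 8.03 with DMSO for 6 h. Probe set 1368921_a_at read 7.99, 8.11 and 8.46 with AA for 6 h, against 8.09, 7.79 and 7.30 with DMSO for 6 h. The first did not overlap and the second did, and neither passed, with differences of 0.68 ± 0.28 (adjusted p = 0.0972) and 0.46 ± 0.32 (adjusted p = 0.315). Clu read 14.19, 14.27 and 14.13 with AA for 6 h, against 14.35, 14.28 and 14.37 with DMSO for 6 h. Its 3 AA arrays were all lower, but the difference of -0.14 did not pass (adjusted p = 0.0753). The only other setting in which Clu was called was the one without AA replicate 2.

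None of the remaining markers passed at 6 h. Of all 8 tested probe sets, 5 had an unadjusted p under 0.05 in limma at 6 h, as had 5756 of all 16253 probe sets. B2m probe set 1371440_at read 10.83, 10.81 and 10.45 with AA for 6 h, against 10.83, 10.94 and 11.05 with DMSO for 6 h, and probe set 1367595_s_at read 15.01, 14.97 and 14.77 with AA, against 15.01, 14.98 and 15.18 with DMSO. Neither B2m probe set passed, with differences of -0.24 and -0.14 (adjusted p = 0.139 and 0.112). Spp1 read 14.63, 14.60 and 14.59 with AA for 6 h, against 14.55, 14.44 and 14.74 with DMSO for 6 h, and the groups overlapped. Timp1 read 14.66, 14.70 and 14.66 with AA for 6 h, against 14.62, 14.62 and 14.65 with DMSO for 6 h, a difference of 0.05 (adjusted p = 0.593).

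At 24 h limma called none of the 8 probe sets, with 1 at an unadjusted p under 0.05, where 1.43% of all probe sets were called. That 1 was Timp1, which read 14.44, 14.40 and 14.36 with AA for 24 h, against 14.15, 14.29 and 14.17 with DMSO for 24 h. Its groups did not overlap, and its difference was 0.19 ± 0.06 (adjusted p = 0.138). Groups also did not overlap for both Cd44 probe sets and Spp1, with AA higher, and for Cst3 and B2m probe set 1367595_s_at, with AA lower. None of these passed. The share of all probe sets without overlap at 24 h is not given here, so no treatment difference is read from the non-overlap. The other markers had adjusted p above 0.5 at 24 h.

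Cd44 probe set 1368921_a_at read 6.53, 6.35 and 6.26 with AA for 24 h, against 5.97, 5.95 and 6.15 with DMSO for 24 h, and probe set 1387952_a_at read 6.64, 6.59 and 6.55 with AA, against 6.39, 6.52 and 6.39 with DMSO. The AA arrays were higher in both by 0.35 and 0.16, within the error of the fit. Spp1 read 14.42, 14.31 and 14.40 with AA for 24 h, against 14.01, 14.26 and 14.12 with DMSO for 24 h, a difference of 0.24 ± 0.13. Clu read 14.12, 14.13 and 14.08 with AA for 24 h, against 14.07, 14.15 and 14.06 with DMSO for 24 h, and overlapped. Cst3 read 13.93 to 14.04 with AA for 24 h, against 14.06 to 14.15 with DMSO for 24 h, a difference of -0.10 ± 0.07. The B2m probe sets differed by -0.05 and 0.04.

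**Figure D3:**
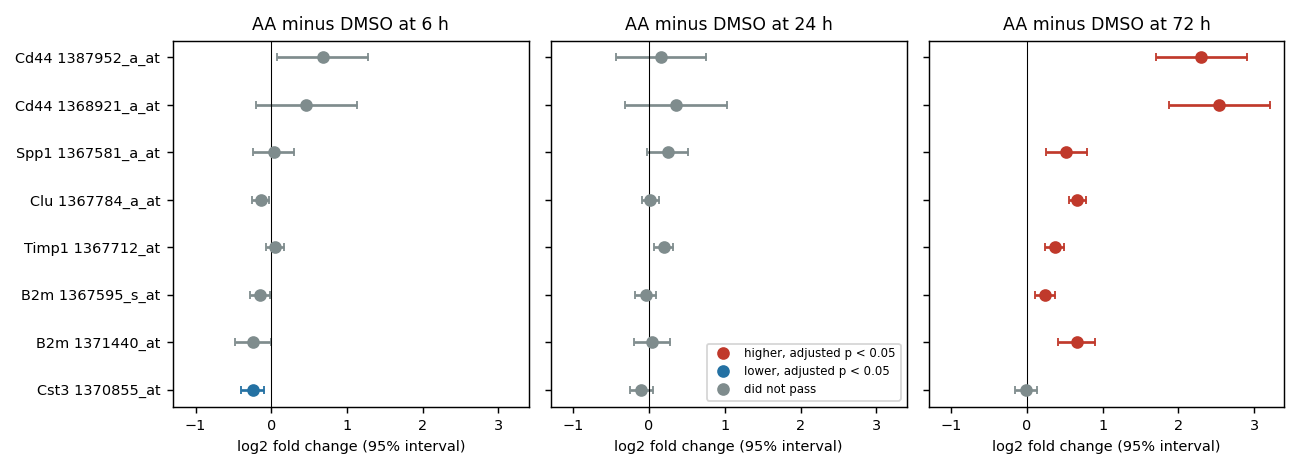
Differences between AA and DMSO for the 8 tested marker probe sets at 6, 24 and 72 h. The horizontal axis is the log2 fold change with its 95% interval, and colour marks adjusted p under 0.05. At 72 h 7 are higher, with Cd44 at 2.54 and 2.30, and at 6 h Cst3 is lower at -0.24.

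The change in the treatment difference between 24 h and 72 h was tested directly, on the arrays of both treatment comparisons. It passed for 5 of the 8 probe sets, all toward higher values with AA at 72 h, against 29.6% of all probe sets, 15.7% in that direction and 13.8% in the other. The change was 2.19 ± 0.45 and 2.15 ± 0.40 in the Cd44 probe sets (adjusted p = 0.00143 and 0.000661) and 0.65 ± 0.08 in Clu (adjusted p = 6.76e-06). It was 0.62 ± 0.16 and 0.29 ± 0.09 in the B2m probe sets 1371440_at and 1367595_s_at (adjusted p = 0.0079 and 0.022). Spp1, Timp1 and Cst3 changed by 0.28, 0.17 and 0.09 and did not pass. The call of B2m probe set 1367595_s_at was lost in 4 other settings, with adjusted p between 0.0535 and 0.0698 there. Between 6 h and 24 h none of the 8 passed in limma, and none had an unadjusted p under 0.05, where 0.948% of all probe sets were called.

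The markers also moved with time in DMSO alone, and these comparisons share arrays with the treatment comparisons. Between 24 h and 6 h in DMSO, 5 of the 8 were lower and 2 higher at 24 h, where 53.6% of all probe sets were called, 27.4% lower and 26.2% higher. The Cd44 probe sets fell by 1.70 and 1.67, Spp1 by 0.44, Timp1 by 0.42 and Clu by 0.24, and Cst3 rose by 0.40. The other higher call, B2m probe set 1367595_s_at at 0.16 (adjusted p = 0.0395), was lost in 9 of 13 other settings. The fall of Cd44 in DMSO continued from 24 h to 72 h, by 1.37 (adjusted p = 0.00262) and 1.79 (adjusted p = 0.000104), and Spp1 fell by 1.88 (adjusted p = 2.39e-08). Without DMSO 72 h replicate 3, Cd44 probe set 1368921_a_at fell by 0.82 and remained called. In that interval 4 of the 8 were lower and 2 higher, against 35.2% called among all probe sets, 17.8% lower and 17.4% higher (14.6% and 19.4% with centred arrays). Clu fell by 0.29, Cst3 rose by 0.60 and B2m probe set 1371440_at rose by 0.75.

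With AA, the fall of Cd44 between 6 h and 24 h was not followed by a further fall. At 24 h against 6 h, 3 of the 8 were lower and 2 higher with AA, where 49.5% of all probe sets were called, 24.2% lower and 25.3% higher. With centred arrays 5 of the 8 were lower and 2 higher, and 29.1% of all probe sets were lower and 20.4% higher. The Cd44 probe sets fell by 1.81 and 2.19 with AA. At 72 h against 24 h, 1 of the 8 was lower and 6 were higher, where 53.1% were called, 24.8% lower and 28.3% higher. Cd44 was higher by 0.81 (adjusted p = 0.0388, lost in 8 other settings) and by 0.35 (adjusted p = 0.309). Spp1 fell by 1.60 in that interval with AA, less than the 1.88 in DMSO, a difference that did not pass above. Clu rose by 0.36 with AA from 24 h to 72 h, and B2m probe sets 1371440_at and 1367595_s_at rose by 1.37 and 0.36.

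In the order of group means, Cd44 was highest at 6 h and lowest with DMSO for 72 h, with AA for 72 h in between. Spp1 followed time at every step, with both 6 h groups highest and both 72 h groups lowest, and within each time AA stood above DMSO on the mean. Cst3 ran the other way, lowest at 6 h and highest at 72 h, and its neighbours at 72 h overlapped. Over the 18 arrays the 2 Cd44 probe sets correlated at r = 0.969 and the 2 B2m probe sets at r = 0.874, and Cst3 with Spp1 at r = -0.918. These are descriptions over arrays that share time and treatment.

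Genes whose levels tracked each marker most closely over the 18 arrays are given by Pearson correlation, with no test. For Cd44 they were Ipo5 (0.971), Sdc1 (0.969) and Nme1 (0.966), and for Spp1 Cyp51 (0.976), Mfap4 (0.973) and Fbln2 (0.973). For Clu they were Cib2 (0.940), Gadd45a (0.928) and Slc1a4 (0.927), and for Timp1 Espl1 (0.949), Tubg1 (0.935) and Aaas (0.929). For B2m they were Cd59b (0.971), Itm2b (0.962) and Stk35 (0.959), and for Cst3 Hexa (0.987), Tfpi (0.985) and Slc22a17 (0.984).

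Other genes of tubule injury and of the markers' pathways were taken from 6 lists, 128 genes in all, of which 119 were on the array and 67 passed the filter. At 72 h 30 of the 67 were higher with AA and 6 lower, at 6 h 12 and 6, and at 24 h 1 and 0. Over all probe sets the shares higher and lower were 23.5% and 21% at 72 h and 9.62% and 11.8% at 6 h, and 1.43% were called at 24 h. With 1 probe set per gene, as the lists were read, they were 27.4% and 19.8% at 72 h and 12.1% and 12.4% at 6 h. At 24 h 2.09% were then called. The 1 gene at 24 h was Hmmr, a hyaluronan receptor, which differed by 0.99 (adjusted p = 0.0379) and was lost in 9 other settings. The median difference of the 67 genes at 72 h was 0.18, against 0.025 over all probe sets and 0.053 with 1 probe set per gene.

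The list of injury, dedifferentiation and repair held 57 genes, of which 55 were on the array and 25 never reached log2 4. Among the 28 tested, 19 were higher and 1 lower at 72 h, with a median of 0.36. Of all probe sets 23.5% were higher and 21% lower (27.4% and 19.8% with 1 probe set per gene). The largest were Atf3, a stress-induced transcription factor (5.27, mean 8.46 with AA and 3.20 with DMSO), Gdf15, a secreted stress factor (3.68, 6.09 and 2.40), and Hmox1, heme oxygenase (3.41, 7.45 and 4.04). For Atf3 and Gdf15 the DMSO means lay below log2 4, so their folds depend on the floor. Gdf15 reached log2 4 only with AA for 72 h. It therefore entered the test, and the count of higher genes, through that group alone. Gsta1, a glutathione transferase, was higher by 3.19. The lower gene was Myc, at -0.42, lost in 8 other settings.

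At 6 h 10 of the 28 were higher and 1 lower, with a median of 0.17. They included Cxcl1 (0.82), Tgfb1 (0.58), Plaur (0.56) and Krt8 (0.50), and of these 4 only Krt8 kept its call in every other setting. Of all probe sets, 9.62% were higher and 11.8% lower at 6 h (12.1% and 12.4% with 1 probe set per gene). Without AA replicate 3 of 6 h, 4 of the 28 were higher and 0 lower.

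Cd44, Spp1 and Vcam1 have adhesion partners, of which 10 were tested. At 72 h Itga5 and Itgav, integrin chains that bind fibronectin and osteopontin, were higher by 1.40 and 0.36, Itgb1 by 0.22 and Msn, which links Cd44 to the cortex, by 0.82. Itga9, an osteopontin receptor chain, was lower by 1.53 with means of 2.66 with AA and 4.19 with DMSO, near the floor. The calls of Itgav and Itgb1 were lost in 6 and 7 other settings. At 6 h Ezr and Hyal2 were higher by 0.31 each and Itgav differed by -0.49, and none of the 3 kept its call without AA replicate 3. Over all, with 1 probe set per gene, 27.4% were higher and 19.8% lower at 72 h, and 12.1% and 12.4% at 6 h.

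Among 8 tested metalloproteases and their inhibitors, Mmp14 was higher by 0.39 at 72 h and Mmp16, Adam10 and Adam17 differed by -2.51, -1.87 and -0.23. Mmp14 is a membrane protease that Timp1 inhibits poorly, and Adam10 is known to shed Cd44. Among 6 cathepsins and cystatins, Ctsb and Ctsl, targets of cystatin C, were higher at 72 h by 0.25 and 0.21. At 6 h Lgmn, Ctsl and Ctsd differed by -0.40, -0.29 and -0.23. All 3 calls were lost with only the arrays of the groups compared, and that of Ctsd in 7 other settings in all. Shares over all probe sets were 23.5% higher and 21% lower at 72 h, and 11.8% lower at 6 h. With 1 probe set per gene they were 27.4%, 19.8% and 12.4%.

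Among the partners of B2m in MHC class I assembly, 4 of 13 tested genes were higher at 72 h and none was lower. Of all probe sets 23.5% were higher and 21% lower, 44.5% in either direction. With 1 probe set per gene, as the list was read, these shares were 27.4%, 19.8% and 47.2%. The share of the list that was higher thus lay near that over all, and the share called in either direction lay below it. Tap1, a subunit of the peptide transporter, was higher by 2.42 (8.81 with AA and 6.39 with DMSO), Calr by 0.60, Tap2 by 0.56 and Psmb9 by 0.53. The receptors that take up filtered proteins were at the floor for Lrp2, Cubn and Amn. Of the 2 tested, Slc22a17, a receptor for Lcn2, was lower by 0.65 at 6 h, a call lost in 4 other settings, and Dab2, an endocytic adaptor, by 0.32 at 72 h.

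**Figure D4:**
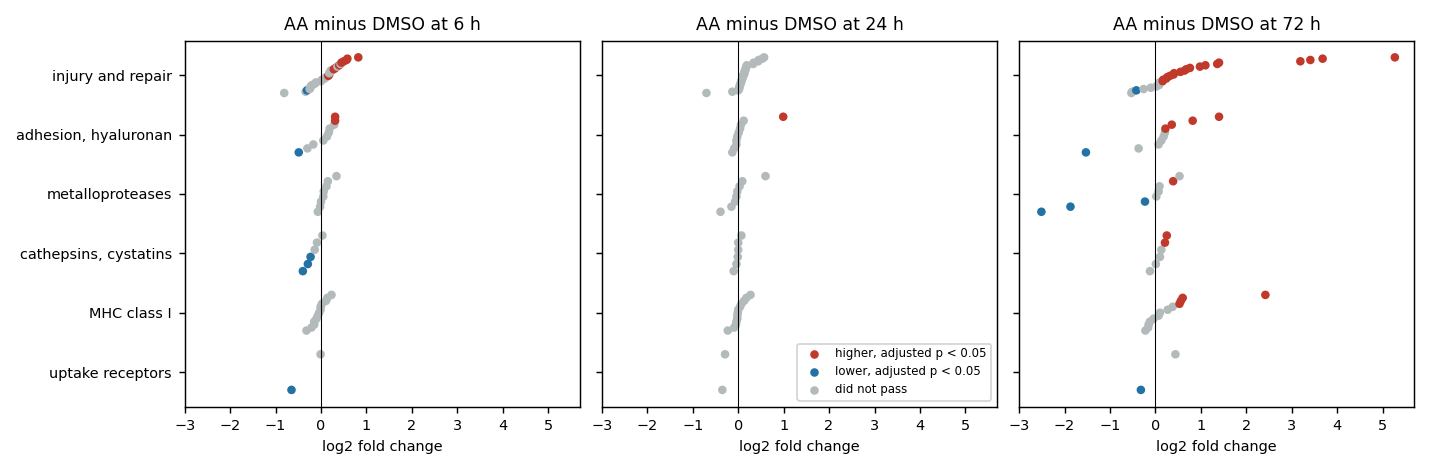
Differences between AA and DMSO at 6, 24 and 72 h for tested genes of 6 lists, 1 point per gene. The horizontal axis is the log2 fold change, rows are lists, and colour marks adjusted p under 0.05. At 72 h Atf3 lies farthest to the right at 5.27 and Mmp16 farthest to the left at -2.51.

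The labelled cell type was checked against its markers. Of 16 proximal tubule markers on the array 3 were tested, Aqp1, Ggt1 and Mme, and 13 never reached log2 4, among them Lrp2, Cubn, Slc34a1, Slc5a2 and Hnf4a. Their summed level was 7.37 to 7.48 with AA for 72 h, against 8.81 to 8.90 with DMSO for 72 h. At 72 h Aqp1, a water channel, was lower by 2.33 with AA, and Ggt1 and Mme differed by -0.04 and -0.55 and did not pass. At 6 h Ggt1, a brush border enzyme, was higher with AA by 1.27 (adjusted p = 0.00567). Immune markers summed to 6.27 to 6.46 with AA for 72 h, against 5.75 to 5.89 with DMSO for 72 h, which followed Cd68 (5.23 and 3.33), and Ptprc, Lyz2, Itgam and Cd3e never reached log2 4. Loop, distal tubule and collecting duct markers summed to 8.80 to 8.95 with AA for 72 h, against 8.34 to 8.59 with DMSO for 72 h, with Gata3 the 1 tested. Fibroblast markers, 4 of 9 tested, summed to 14.36 to 14.61 with AA for 72 h, against 14.70 to 14.87 with DMSO for 72 h. Endothelial markers, 2 of 7 tested, summed to 6.72 to 6.79 with AA for 72 h, against 7.16 to 7.36 with DMSO for 72 h. Their part in the marker differences was not tested.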

How the data were processed

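Biotin-labelled cRNA made from total RNA was read on 18 Affymetrix arrays, per the labels' protocols. Each deposited value is the authors' log2 expression of a probe set. The submitters' processing notes name GCRMA, a method that models background by probe composition. Neither its version nor its settings nor a build is given in the sources used here. Array medians lay between 4.03 and 4.20, and weak probe sets sat near log2 2. For arrays, their number limits the precision, and the median SD between replicates was 0.126.

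Gene names came from the platform annotation, which gave 1 symbol to 20832 of 31099 probe sets, several to 436 and none to 9831. Of those with 1 symbol, 20764 matched RefSeq by gene number. The fit covered 16253 probe sets that reached log2 4 on 3 or more arrays, with the 57 controls left out. All 18 arrays were fitted in R 4.3.3 with limma 3.58.1 as 6 group means, with moderation and an intensity trend (12 residual and 5.73 prior degrees of freedom). Benjamini-Hochberg adjustment covered all probe sets tested in each comparison, and adjusted p under 0.05 counted as called. The step was tested on simulated data.

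The members and lists were chosen with earlier results of these data known, and they are described by counts and medians with no list test. Named were every member probe set, up to 4 called genes per list, time and direction with the largest difference, and the 3 genes most correlated with each member. A list gene with several probe sets was read from the brightest. Summed levels of cell type markers are log2 of the summed linear values. Alternatives were other filters, 1 probe set per gene, arrays centred on their median, no intensity trend, only the arrays of the groups compared, a replicate block and each replicate left out. Promoters came from a RefSeq table of GRCr8.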

Additional observations from a re-analysis of the deposited data

Results flagged for a closer look

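The difference between AA and DMSO was larger at 72 h than at 24 h in a direct test of that change for 5 marker probe sets. The change on the log2 scale was 2.19 in Cd44 probe set 1368921_a_at, 2.15 in Cd44 probe set 1387952_a_at, 0.65 in Clu probe set 1367784_a_at, 0.62 in B2m probe set 1371440_at and 0.29 in B2m probe set 1367595_s_at. The tests of the 72 h difference use the same 72 h arrays, so the change is no separate evidence of it. Groups of 3 arrays were not tested for a single array far from the others.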

How the results depend on the processing

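All 7 marker calls at 72 h held in every alternative in which the probe set was tested. With 1 probe set per gene, 6 marker probe sets were tested at 72 h and 5 were called. Probe sets called at 6 h numbered 3482, against 2211 with 1 probe set per gene, 866 with only the arrays compared and 1424 to 3835 with a replicate left out (1424 without AA replicate 3, 2220 and 2273 without DMSO replicates 2 and 3), and the marker call of Cst3 (1) became 0 with no filter, centred arrays, no trend or only the arrays compared (0 to 2 with a replicate left out). At 24 h the 233 called became 133 without the filter, 94 with only the arrays compared and 96 to 216 with a replicate left out. At 72 h the 7236 called became 4257 with 1 probe set per gene and 6063 to 7137 with a replicate left out. For the change from 6 h to 24 h 154 became 27 without the filter, 94 with no trend, 20 with only the arrays compared and 1 to 375 with a replicate left out. With 1 probe set per gene, which has fewer rows by construction, the change from 24 h to 72 h gave 2921 (4804) and 3 markers (5), DMSO 24 h against 6 h 5296 (8715), DMSO 72 h against 24 h 3095 (5720), AA 24 h against 6 h 4729 (8043) and AA 72 h against 24 h 4752 (8631). Centring each array turned the 6 h split of 1564 higher and 1918 lower into 2374 and 1151, with the median over all probe sets at 0.059 in place of -0.019, the AA 24 h against 6 h split of 4110 and 3933 into 3319 and 4731, the DMSO 72 h against 24 h split of 2820 and 2900 into 3150 and 2374, and the 89 and 65 of the change from 6 h to 24 h into 39 and 70. Uncalled values crossed 0 with a replicate left out for Spp1 at 6 h (-0.035 to 0.116), Clu at 24 h (-0.001 to 0.048), B2m probe set 1371440_at at 24 h (-0.023 to 0.100) and in DMSO 24 h against 6 h (-0.085 to 0.034), Cst3 at 72 h (-0.055 to 0.050, and 0.006 centred), Cd44 probe set 1368921_a_at in the change from 6 h to 24 h (-0.291 to 0.108) and Timp1 in DMSO 72 h against 24 h (-0.033 to 0.076). The cause of these changes was not tested. The labels do not say whether replicates of the same number were paired. Correlations of same-numbered deviations were 0.01, 0.28 and 0.05 at 6 h, -0.01, -0.02 and 0.29 at 24 h, and -0.03, 0.03 and -0.15 at 72 h. Differently numbered arrays reached 0.31 at 24 h. With the number as a replicate block 3524, 215 and 7290 probe sets were called at 6, 24 and 72 h, with no marker call changed. Signal near the floor limits Havcr1, Lcn2, Vcam1, Tff3 and the DMSO 72 h level of Cd44.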
